A study of Mus musculus with 90 samples.

Results

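The hypothalamus of female mice was compared between estrus and diestrus, with 6 of the 90 libraries of a survey of 15 tissues. The 6 libraries were chosen by their labels, which assign 3 hypothalamus libraries to each phase. All were normal C57BL/6 females, untreated and 10 weeks old according to the labels (the methods of the study state another age and the substrain C57BL/6J), with no transgene or deletion named. The phase was read from vaginal smears stained with methylene blue, and the methods name serum estrogen and progesterone as a further aid. Per the methods the animals were taken in triplicate, so each library is treated as 1 mouse. Values are in FPKM, the fragments of a gene per kilobase of its transcript, scaled to library size. Of 20414 genes listed, the 13400 that averaged 1 FPKM or more here were tested. Log2 fold changes are differences in mean log2(FPKM + 1), estrus minus diestrus, which understate the change of low genes. Each value ± SD is over the 3 libraries of a phase. The libraries are bulk tissue, in which fewer cells of a type and less RNA per cell cannot be told apart.

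The hypothalamus links the ovary to the pituitary. Its GnRH neurons drive release of the gonadotropins, and kisspeptin and neurokinin B neurons pass the feedback of estradiol and progesterone on to them. Other hypothalamic neurons make oxytocin, vasopressin and releasing hormones, or peptides that raise and lower feeding, and many of these cells carry steroid hormone receptors. In the mouse, estrus follows ovulation, and diestrus is the phase in which corpora lutea secrete progesterone.

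The hypothalamic label was borne out by its markers. The summed level of 19 hypothalamic neuron genes was 1858 to 2965 FPKM here and 10.5 to 60.1 FPKM in the 6 cerebrum libraries, whereas 12 genes of cortex and hippocampus summed to 64.1 to 106 FPKM here and 959 to 1294 FPKM in cerebrum. The 2965 FPKM was that of estrus replicate 2, in which Pomc, a listed gene that pituitary also makes, was at 711 FPKM. Depth, approximated from the smallest steps between values of short genes, was 15.3M to 15.6M reads. Pearson's r between libraries ran from 0.987 to 0.994 across genes, which are not independent replicates. Some libraries stood apart in genes of neighbouring tissue. Estrus replicate 2 held pituitary genes, estrus replicate 3 held genes of midbrain dopamine neurons, and diestrus replicate 3 held red blood cell genes at a summed 603 FPKM against 48 to 111 FPKM in the other 5 libraries. Results that rest on estrus replicate 2 are given with and without it.

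No gene passed between the phases at the limits used for a call, which were an adjusted p of at most 0.05 and a log2 fold change of 1 or more in size (limma, 0 of 13400 genes, 0%), and none passed at the adjusted p alone, whose lowest value was 0.226. At an unadjusted p under 0.05, 1023 genes (7.63%) were higher in estrus and 748 genes (5.58%) were lower. All 3 estrus libraries lay above all 3 diestrus libraries for 1335 genes (9.96%) and below them for 1292 genes (9.64%). The balance of the directions depended on the scale: rescaled to TPM, 314 genes were higher and 2041 lower at an unadjusted p under 0.05, and under quantile normalization 784 were higher and 1072 lower. The median log2 fold change over all tested genes was 0.01, and -0.06 on the TPM scale. The 95% interval of the log2 fold change lay within 1 in both directions for 98.8% of the tested genes. Without estrus replicate 2, 1412 genes (10.5%) were higher and 735 (5.49%) lower at the same unadjusted p, and 5 genes passed at an adjusted p of at most 0.05 (0.0373%), and 4 of them (0.0299%) also reached a log2 fold change of 1.

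Pituitary hormone genes had the highest fold changes, and 1 library was far above the others in them. Prl, which encodes prolactin of pituitary lactotrophs, was at 208, 21607 and 262 FPKM in estrus and 9.29, 25.1 and 179 FPKM in diestrus. The 2 phases did not overlap for Prl, but estrus replicate 2 was 121 times the median of the other 5 libraries. Its log2 fold change was 4.86 (adjusted p = 0.329) and, without estrus replicate 2, 2.69 (adjusted p = 0.276). Gh, growth hormone of somatotrophs, was at 84.8, 9200 and 89.9 FPKM in estrus and 3.65, 10.2 and 95.7 FPKM in diestrus, so diestrus replicate 3 was above 2 of the estrus libraries. The log2 fold change of Gh was 4.6 (limma adjusted p = 0.355) and, without estrus replicate 2, 2.37 (adjusted p = 0.347). Prl and Gh thus stayed higher in estrus without that library, though neither passed. The shared glycoprotein hormone subunit Cga stood at 338 FPKM in estrus replicate 2 and at 0.37 to 10.7 FPKM in the others. Lhb, the luteinizing hormone subunit, stood at 67.8 FPKM there and at 1.12 to 1.95 FPKM elsewhere. Pomc, the precursor of melanocortins that arcuate neurons and pituitary corticotrophs both make, was at 711 FPKM in estrus replicate 2 and 22.1 to 68.7 FPKM in the others. The growth hormone releasing hormone receptor Ghrhr and the pituitary lineage factor Pou1f1 read 7.56 and 4.49 FPKM in that library and at most 0.08 and 0.15 FPKM in the others.

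The summed level of 13 pituitary markers was 313, 31251 and 362 FPKM in estrus and 20, 45.8 and 295 FPKM in diestrus. The 10 genes with a log2 fold change of at least 1 were Prl, Gh, Cga, Lhb, Pomc, Ghrhr, Cyp2f2, Epcam, En1 and Ucn, and the 1 gene at -1 or below was Mup10. Ghrhr, Epcam, En1 and Ucn averaged 1 FPKM only through the 1 estrus library where they were high. In the others they were at most 0.08, 0.98, 1.43 and 0.3 FPKM. The filter thus favoured the higher side. Without estrus replicate 2, Cga, Lhb, Pomc, Ghrhr, Cyp2f2 and Epcam ranged from 0.04 to 0.74 in log2 fold change. Of the 21 pituitary hormone and pituitary factor genes, 14 were tested, none passed, and the median log2 fold change of 0.86 became 0.05 without that library. Among the 14, Ghrhr, Pitx1 and Tbx19 were high enough to test only through estrus replicate 2. Whether the pituitary RNA of the estrus libraries bears on their other genes was not tested beyond leaving estrus replicate 2 out.

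**Figure D1:**
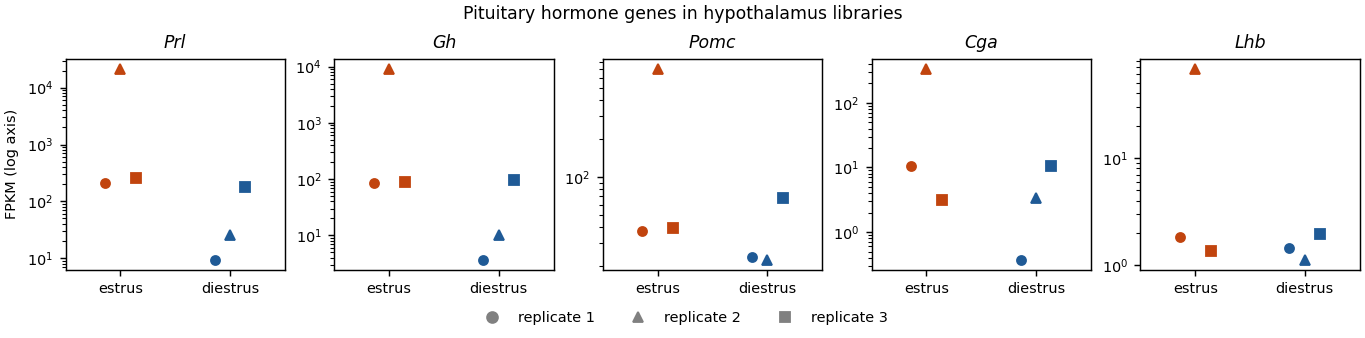
Level of 5 pituitary hormone genes in each hypothalamus library, in FPKM on a log axis; orange is estrus, blue is diestrus, and the marker shape is the replicate number. Estrus replicate 2, the triangle in orange, is at 21607 FPKM for Prl and 9200 FPKM for Gh, far above every other library, while diestrus replicate 3 is near the other estrus libraries.

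Among the genes of the GnRH pulse generator, Tac2 was the one without overlap of the phases. Tac2 encodes neurokinin B, the tachykinin of arcuate kisspeptin neurons. It was at 59.7, 67.5 and 63.2 FPKM in estrus and 78.4, 70.5 and 71.1 FPKM in diestrus. Every estrus library was below every diestrus library. The means were 63.5 ± 3.94 and 73.3 ± 4.37 FPKM, and the log2 fold change was -0.21 ± 0.06 (SE, limma adjusted p = 0.275). Kiss1, the kisspeptin gene, was at 3.66, 3.58 and 1.93 FPKM in estrus and 5.05, 3.74 and 2.14 FPKM in diestrus, with overlap. Gnrh1, the gene of gonadotropin-releasing hormone itself, read 4.32, 3.15 and 1.61 FPKM in estrus against 3.54, 4.6 and 5.14 FPKM in diestrus. Its log2 fold change of -0.48 had a 95% interval from -1.04 to 0.08. Pdyn, the dynorphin precursor that brakes the same neurons, averaged 24.2 ± 1.33 FPKM in estrus and 26.7 ± 2.18 FPKM in diestrus. The neurokinin B receptor Tacr3, the kisspeptin receptor Kiss1r and the substance P precursor Tac1 overlapped between the phases. Npvf, which encodes the gonadotropin-inhibiting RFamide peptides, was at 9.34 to 11.8 FPKM in estrus and 9.49 to 14.8 FPKM in diestrus. Of the 14 genes of this group 11 were tested and none passed. Of the 11, 8 had a log2 fold change below 0, with a median of -0.14, and 1 lay below without overlap. Over all tested genes the median was 0.01, 46.2% had values below 0 and 9.64% lay below without overlap. The single gene without overlap is near that share.

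Steroid hormone receptors differed little. Pgr, the progesterone receptor and a classical estrogen target, was at 4.18, 4.49 and 4.38 FPKM in estrus and 5.48, 4.88 and 5.3 FPKM in diestrus. The phases did not overlap, with means of 4.35 ± 0.16 and 5.22 ± 0.31 FPKM and a log2 fold change of -0.22 ± 0.07 (SE, adjusted p = 0.276). Without estrus replicate 2 it was -0.23, and after adjustment for transcript length -0.22. Esr1, the estrogen receptor alpha gene, read 4.5, 5.18 and 3.62 FPKM in estrus and 3.64, 4.15 and 3.83 FPKM in diestrus, with overlap. Esr2, the beta receptor, was at 0.33 to 0.56 FPKM in the 6 libraries, below the limit for a test. The glucocorticoid receptor Nr3c1 and the membrane progesterone-binding Pgrmc1 overlapped as well. The steroid receptor coactivator Ncoa2 was lower in every estrus library, at 12.6 ± 0.51 against 14 ± 0.7 FPKM (log2 fold change -0.14). Ncoa1 was too, at 17 ± 0.34 against 18.5 ± 1.04 FPKM (log2 fold change -0.12). Of the listed receptors and cofactors 13 were tested, none passed, and 9 had values below 0 with a median of -0.05. Of the 13, 3 lay below without overlap. Over all tested genes 46.2% had values below 0 and 9.64% lay below without overlap.

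**Figure D2:**
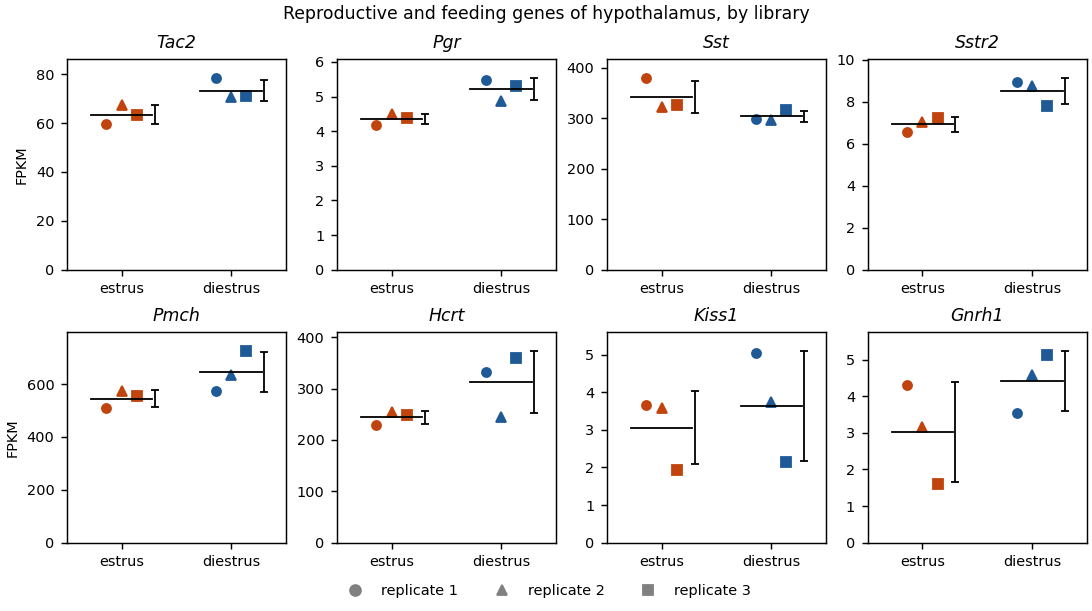
Level of 8 hypothalamic genes by library, in FPKM; points are single libraries, shaped by replicate number, horizontal lines are means and vertical bars are the SD of 3 libraries. Tac2, Pgr, Sstr2 and Pmch lie lower in all 3 estrus libraries and Sst higher, whereas Hcrt, Kiss1 and Gnrh1 overlap.

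The promoters of 3 of the genes without overlap and of Rpl27a, a ribosomal protein gene discussed with its family, are shown so that the sequence beside the start of each gene can be read with its expression. Each is the 250 bases before the RefSeq start in GRCm38.p6, 5′ to 3′ on the strand of the gene, and overlaps no exon of the annotation used. The deposited values carry no coordinates, and the authors used patch release GRCm38.p5. The motifs searched, on both strands, were the cyclic AMP response element TGACGTCA, the E-box CACGTG, the estrogen response element (2 arms of GGTCA that face each other 3 bases apart) and the steroid receptor core motif AGGTCA, which can lie inside the estrogen response element. Capitals mark a match. The Sst window is chr16:23890845-23891094 (minus strand), the Tac2 window chr10:127724228-127724477 (plus strand), the Pgr window chr9:8899583-8899832 (plus strand) and the Rpl27a window chr7:109518945-109519194 (plus strand).
Sst: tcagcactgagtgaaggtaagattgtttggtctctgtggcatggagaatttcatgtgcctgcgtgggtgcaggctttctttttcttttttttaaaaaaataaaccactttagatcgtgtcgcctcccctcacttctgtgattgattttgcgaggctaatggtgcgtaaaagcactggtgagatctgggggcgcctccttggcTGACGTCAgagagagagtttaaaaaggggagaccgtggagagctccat
Tac2: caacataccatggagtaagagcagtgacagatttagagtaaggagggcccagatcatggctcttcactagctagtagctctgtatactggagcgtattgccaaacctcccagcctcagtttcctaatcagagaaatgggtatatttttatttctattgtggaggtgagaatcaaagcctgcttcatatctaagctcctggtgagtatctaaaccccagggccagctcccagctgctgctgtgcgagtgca
Pgr: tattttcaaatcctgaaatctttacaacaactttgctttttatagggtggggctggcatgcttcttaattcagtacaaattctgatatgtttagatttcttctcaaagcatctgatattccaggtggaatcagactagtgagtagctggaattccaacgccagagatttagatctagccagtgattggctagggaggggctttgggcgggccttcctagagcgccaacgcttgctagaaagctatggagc
Rpl27a: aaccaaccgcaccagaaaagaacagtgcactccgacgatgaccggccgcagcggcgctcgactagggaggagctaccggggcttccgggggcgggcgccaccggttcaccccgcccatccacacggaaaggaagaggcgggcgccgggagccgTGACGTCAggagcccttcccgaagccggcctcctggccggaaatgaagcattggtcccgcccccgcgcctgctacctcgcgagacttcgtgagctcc
The cyclic AMP response element was found in Sst, starting 48 bases before the gene, and in Rpl27a, starting 97 bases before it. It is present in 1.55% of the 32851 promoters of the table. The E-box (6.02% of promoters), the estrogen response element (0.0639%) and the core motif (14%) were not found in these 4 windows, which says only that those letters are absent there.

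Among the releasing hormones and their receptors, Sst, Sstr2 and Crhr1 were the genes without overlap. Sst, whose peptide inhibits growth hormone release, was at 380, 322 and 326 FPKM in estrus and 299, 297 and 316 FPKM in diestrus, all estrus libraries being higher (log2 fold change 0.17, adjusted p = 0.357). After length adjustment the difference was 0.09. Sstr2, a somatostatin receptor gene, was at 6.53, 7.02 and 7.22 FPKM in estrus and 8.95, 8.75 and 7.81 FPKM in diestrus, all estrus libraries being lower (log2 fold change -0.26, adjusted p = 0.247). Crhr1, the main receptor of corticotropin-releasing hormone, was higher in each estrus library, at 4.43 ± 0.3 against 3.74 ± 0.38 FPKM (log2 fold change 0.2). The neurohypophysial peptides varied more between mice than between phases. Oxt, the oxytocin gene, read 521, 546 and 191 FPKM in estrus and 534, 394 and 337 FPKM in diestrus, with the lowest library in estrus. Avp, the vasopressin gene, read 498, 455 and 418 FPKM in estrus and 310, 496 and 516 FPKM in diestrus. The 95% interval of the log2 fold change ran from -1.01 to 0.75 for Oxt and from -0.33 to 0.5 for Avp. Trh, Ghrh and Crh, which encode the releasing hormones for thyrotropin, growth hormone and corticotropin, also overlapped. All 17 genes of this group were tested and none passed. Of these, 2 lay higher and 1 lower without overlap, near the 9.96% and 9.64% of all tested genes.

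Among the feeding genes, Pmch, Mc4r and Glp1r lay lower without overlap, beside 9.64% of all tested genes. Pmch, which encodes melanin-concentrating hormone, was at 508, 573 and 555 FPKM in estrus and 575, 635 and 725 FPKM in diestrus. The gap between the phases was narrow, and the log2 fold change was -0.24 ± 0.09 (SE, adjusted p = 0.331). Hcrt, the orexin gene of neighbouring neurons, was at 230, 254 and 247 FPKM in estrus and 333, 244 and 360 FPKM in diestrus, so 1 diestrus library fell among the estrus ones (log2 fold change -0.34, adjusted p = 0.341). The melanocortin receptor Mc4r (1.27 ± 0.39 against 1.88 ± 0.15 FPKM) and the GLP-1 receptor Glp1r (1.25 ± 0.14 against 1.7 ± 0.14 FPKM) were lower in all estrus libraries. The arcuate peptides did not separate. Agrp, the melanocortin antagonist, was at 8, 6.47 and 15.7 FPKM in estrus and 5.01, 7.01 and 8.6 FPKM in diestrus. Npy, neuropeptide Y of the same cells, was at 49.5 to 102 FPKM in estrus and 59.6 to 69.1 FPKM in diestrus. The leptin receptor gene Lepr and the insulin receptor gene Insr had log2 fold changes of 0.04 and 0.005, with overlap of the phases. Of the 30 genes of this group 27 were tested, none passed, 11 had values above 0 and 16 below 0, beside 46.2% below 0 of all tested genes. The 3 of 27 that lay lower without overlap were near the 9.64% of all tested genes.

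Of 24 tested estrogen-responsive genes of brain, 14 had log2 fold changes below 0 and 5 lay below without overlap, beside 46.2% and 9.64% of all tested genes. None lay above without overlap, none passed, and the median was -0.09. This list shares Pgr, Tac2, Kiss1 and Esr1 with the groups above. Irs4, an insulin receptor substrate of hypothalamic neurons that was counted with the feeding genes, was at 20.1, 23.5 and 21.3 FPKM in estrus. In diestrus Irs4 was at 25.3, 22.7 and 25.5 FPKM. Vgf and Penk, a granin-like precursor and the enkephalin precursor, overlapped. Of the transcription factors that the study lists for hypothalamus, a list drawn from these samples and so not independent, 1 of 8 was high enough to test. This was Zeb1, an E-box binding repressor, at 24.9, 24.4 and 24.7 FPKM in estrus and 26.9, 26.6 and 26.3 FPKM in diestrus (log2 fold change -0.1, adjusted p = 0.317). Gata3 was at 1.39, 0.19 and 1.38 FPKM in estrus and 0.1, 0.17 and 0.02 FPKM in diestrus, below the limit for a test. Foxa2 was at 1.49 FPKM in estrus replicate 3 and at most 0.57 FPKM elsewhere.

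Clock genes were close between the phases. Nr1d1, the nuclear repressor REV-ERB alpha, was at 41, 44.5 and 33.9 FPKM in estrus and 46.7, 44.7 and 46 FPKM in diestrus (log2 fold change -0.21, adjusted p = 0.378), with estrus replicate 2 almost touching the diestrus range. Dbp, an output factor of the same phase, was at 59, 60.8 and 61 FPKM in estrus and 62.6, 46.1 and 63 FPKM in diestrus. Arntl, the BMAL1 gene of the opposite phase, differed by 0.02 in log2 fold change. Of the activity-regulated immediate early genes, Fosb was lower in each estrus library, at 3.35, 3.55 and 2.12 against 4.33, 4.05 and 5.23 FPKM (log2 fold change -0.48, adjusted p = 0.282). Egr1 was at 18.2 to 35.5 FPKM in estrus and 23 to 23.5 FPKM in diestrus. Of 23 immediate early genes tested, 3 lay above and 3 below without overlap, beside 9.96% and 9.64% of all tested genes.

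Neurotransmitter receptor genes were lower in estrus by small amounts. Of 43 genes of glutamate, GABA and glycine receptors tested, 39 had log2 fold changes below 0, 12 lay below without overlap and 1 above, against 46.2% of all tested genes below 0 and 9.64% below without overlap. Their median was -0.09, and after length adjustment -0.07. Gabrq, the theta subunit of GABA-A receptors found in hypothalamus, was at 21.3, 24.5 and 23.3 FPKM in estrus and 29.4, 26.3 and 27.2 FPKM in diestrus (log2 fold change -0.25, adjusted p = 0.235). Gria1, an AMPA receptor subunit, was at 87.8, 86.6 and 82.6 FPKM in estrus and 95.1, 93.5 and 95.3 FPKM in diestrus. Gabra3, Grm7 and Gabre also lay below in every estrus library, with log2 fold changes of -0.13 to -0.2. Of 26 monoamine and muscarinic receptor genes tested, 22 had values below 0 and 8 lay below without overlap, with a median of -0.12. The histamine receptor Hrh1 was at 6.09, 6.35 and 5.97 FPKM in estrus and 7.48, 7.55 and 7.5 FPKM in diestrus, among the clearest gaps (log2 fold change -0.25, adjusted p = 0.226). The serotonin receptor Htr2a averaged 2.95 ± 0.2 and 3.87 ± 0.35 FPKM, and the alpha2A adrenergic receptor Adra2a was at 13.7 to 15.3 FPKM in estrus and 16 to 17 FPKM in diestrus. None of these genes passed.

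Voltage-gated channel genes, a list added after the values were seen, had 43 of 65 tested values below 0 and 15 below without overlap, beside 46.2% and 9.64% of all tested genes. Kcnq5, an M-current potassium channel gene, was at 5.42, 5.12 and 5.48 FPKM in estrus and 6.52, 6.59 and 6.81 FPKM in diestrus (log2 fold change -0.27, adjusted p = 0.226). The calcium channel genes Cacna1b, Cacna1c, Cacna1i and Cacng4 had log2 fold changes of -0.12 to -0.16. The list's median was -0.04, and -0.02 after length adjustment.

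Ribosomal protein genes were higher in estrus by small amounts that the libraries agreed on. Of 76 tested, a list added after the values were seen, 75 had log2 fold changes above 0 and 66 lay above without overlap, beside 53.8% and 9.96% of all tested genes. The median was 0.18, and 0.11 on the TPM scale. Rps16, a subunit of the small ribosome, was at 229, 233 and 239 FPKM in estrus and 196, 189 and 193 FPKM in diestrus (log2 fold change 0.28 ± 0.04 SE, unadjusted p = 9.7e-05, adjusted p = 0.226). Rpl27a was at 243, 238 and 245 FPKM in estrus and 198, 204 and 208 FPKM in diestrus, and Rpl41 at 597, 609 and 592 against 481, 500 and 506 FPKM. Many ribosomal protein genes have processed copies, which can share reads. Nuclear genes of oxidative phosphorylation, added likewise, had 70 of 73 values above 0, with 37 above without overlap and a median of 0.16. Cox6a1, a subunit of cytochrome c oxidase, was at 407, 362 and 413 FPKM in estrus and 350, 340 and 335 FPKM in diestrus.

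The genes with the lowest p were also modest in size. Tmem258, a small membrane protein of the oligosaccharyltransferase complex, was at 33.7, 33.5 and 32.4 FPKM in estrus and 22.9, 25.4 and 24.7 FPKM in diestrus, the lowest p of all (log2 fold change 0.43 ± 0.05 SE, adjusted p = 0.226). Rsrp1 was at 108, 105 and 109 FPKM in estrus and 88.4, 84.3 and 85.7 FPKM in diestrus. Phyhd1 averaged 20.7 ± 1.56 and 14.8 ± 0.69 FPKM, and Kazald1 averaged 4.33 ± 0.31 and 2.57 ± 0.3 FPKM. S100a10, Naa38, Lamtor4 and C030006K11Rik also lay above in every estrus library, with log2 fold changes of 0.27 to 0.35. Ago2, the slicer of RNA interference, was the 1 gene of these 12 that was lower, at 10.2, 10.6 and 9.74 FPKM in estrus and 12.7, 13.1 and 13 FPKM in diestrus.

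Over all tested genes, the direction of the small differences varied with the length of the transcript. In the shortest quintile of genes (189 to 1109 bases) 18.9% lay above and 4.86% below without overlap. In the longest quintile (3898 bases and more) 2.95% lay above and 20.4% below. The median log2 fold change went from 0.07 in the shortest quintile to -0.04 in the longest. By library, the median deviation from the gene mean in the shortest quintile was 0.04, 0 and 0.04 in estrus and -0.03, -0.04 and -0.01 in diestrus, and in the longest quintile -0.01, -0.03 and -0.04 in estrus and 0.02, 0.04 and 0.01 in diestrus. In cerebrum the median went from 0.04 to 0.01 over the same quintiles. The median transcript of the ribosomal protein genes is 704 bases long, of the oxidative phosphorylation genes 625 bases, of the transmitter receptor genes 3472 bases and of the channel genes 4287 bases. When each library was adjusted for length, an alternative chosen after the values were seen, 512 genes (3.92%) were higher and 880 (6.74%) lower at an unadjusted p under 0.05, none passing at the adjusted p. The medians became 0.1 for ribosomal protein genes, 0.08 for oxidative phosphorylation genes and -0.07 for transmitter receptor genes. Of the 43 transmitter receptor genes, 36 were still below 0. The median of the monoamine and muscarinic receptor genes did not shrink. It went from -0.12 to -0.14, with 22 of 26 below 0 after adjustment. What gives rise to the length dependence was not tested.

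**Figure D3:**
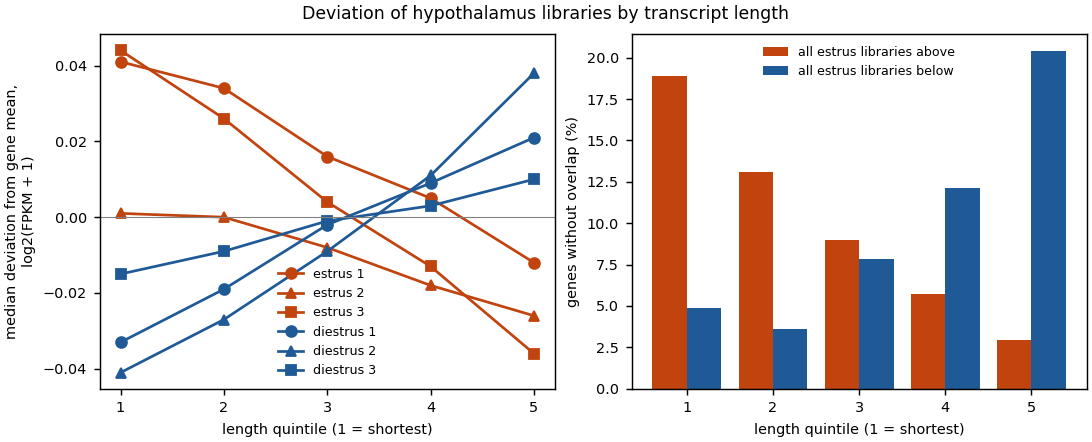
Left, median deviation of each library from the gene mean, in log2(FPKM + 1), in quintiles of transcript length from shortest to longest, orange for estrus and blue for diestrus; right, percentage of genes whose 3 estrus libraries all lie above or all below the 3 diestrus libraries. Estrus lines slope down and diestrus lines up, and the share above goes from 18.9% to 2.95% while the share below goes from 4.86% to 20.4%.

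The genes with the greatest fold changes among those that also separated without estrus replicate 2 are given next, beside Prl. On the higher side, Aldh1a1, a retinaldehyde dehydrogenase, was at 48, 39.6 and 88.4 FPKM in estrus and 27.8, 37.7 and 34.3 FPKM in diestrus (log2 fold change 0.72, adjusted p = 0.327). It belongs to the list of midbrain dopamine neuron genes and was highest in estrus replicate 3, which held other genes of that list, and its log2 fold change without that library was 0.39. The troponin gene Tnni3 was at 1.97, 1.51 and 1.73 FPKM in estrus and 0.67, 0.98 and 0.68 FPKM in diestrus. Tgfbr3l, Copz2 and Pdzk1ip1 were highest in estrus replicate 2, at 17.5, 18.9 and 2.93 FPKM, and their log2 fold changes of 0.75, 0.67 and 0.66 became 0.37, 0.29 and 0.34 without it. Slc24a5, Dctpp1, Gm3696, Rps6 and 1 gene without a symbol made up the rest, and Rps6 has near-identical copies. On the lower side, the protocadherin gene Pcdha7 was at 1.11, 0.97 and 0.58 FPKM in estrus and 1.81, 1.76 and 1.69 FPKM in diestrus. The galanin receptor Galr1 was at 1.36, 1.76 and 1.27 FPKM in estrus and 2.49, 2.27 and 2 FPKM in diestrus (log2 fold change -0.4, adjusted p = 0.257). Prokr2, the receptor of prokineticin, which GnRH neurons need to reach the hypothalamus, was at 2.14, 2.03 and 1.78 FPKM in estrus and 2.67, 3.02 and 2.87 FPKM in diestrus (log2 fold change -0.37, adjusted p = 0.232). The proteoglycan enzymes Xylt1 and Hs6st3 were lower too, with log2 fold changes of -0.35 and -0.44. The predicted genes Gm10698 and Gm40814 had the lowest log2 fold changes of this group, at -0.999 and -0.84, and Entpd4, Pakap and Tmem200a also belonged to it.

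Pvalb, Scn4b and Kcng4, which are known from fast-spiking neurons, and Irx2 and Ppp1r14a were high in 2 of the 3 estrus libraries. Pvalb, the calcium buffer parvalbumin, was at 69.4, 25.5 and 60.1 FPKM in estrus and 26.9, 26.1 and 25.5 FPKM in diestrus. Estrus replicate 2 sat with the diestrus libraries. The log2 fold change was 0.83 (adjusted p = 0.337) with all libraries and 1.27 (adjusted p = 0.00287) without estrus replicate 2. Scn4b, a sodium channel subunit, was at 10.5, 4.06 and 9.14 FPKM in estrus and 3.35 to 4.16 FPKM in diestrus, and Kcng4, a modifying potassium channel subunit, at 4.46, 1.03 and 4.35 against 0.93 to 1.26 FPKM. The homeobox gene Irx2 and the phosphatase inhibitor Ppp1r14a behaved likewise, at 3.46, 1.28 and 3.39 FPKM and at 30.2, 17.5 and 29.2 FPKM in estrus. Without estrus replicate 2 the adjusted p was 0.0214 for Scn4b, Kcng4 and Ppp1r14a and 0.0366 for Irx2, and Ppp1r14a stayed under a log2 fold change of 1. Leaving out any other library gave no gene at an adjusted p of at most 0.05, so these 5 genes depend on which library is dropped.

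Myelin moved with the same libraries. Mbp, myelin basic protein, was at 2039, 1255 and 2126 FPKM in estrus and 1399, 1628 and 1633 FPKM in diestrus. The summed level of 12 oligodendrocyte markers was 3315, 2186 and 3465 FPKM in estrus and 2409, 2751 and 2803 FPKM in diestrus, and none of them was at 0 in all libraries. Without estrus replicate 2 all 12 had values above 0 with a median log2 fold change of 0.2, and 9 reached an unadjusted p under 0.05, against 10.5% of all tested genes higher. The part of myelin-rich tissue in the Pvalb result was not tested. Estrus replicate 3 stood alone in another set: Slc6a3, the dopamine transporter, was at 42.2 FPKM there and 0.68 to 7.46 FPKM elsewhere, and Th, the rate-limiting enzyme of dopamine synthesis, at 79.7 FPKM against 21.8 to 29.8 FPKM. En1, Tph2 and Ucn, genes of midbrain and raphe neurons, were at 6.35, 4.5 and 17.4 FPKM there. In the other libraries En1 was at 0.15 to 1.43 FPKM and Ucn at most 0.3 FPKM. Cartpt, a feeding peptide, was at 201 FPKM in estrus replicate 3 against 66.5 to 88.7 FPKM elsewhere. The summed level of 13 midbrain dopamine neuron genes, a list added after the values were seen, was 114, 138 and 349 FPKM in estrus and 116 to 141 FPKM in diestrus. The 12 markers of midbrain and hindbrain listed beforehand set estrus replicate 3 apart much less. They summed to 60.7, 67.4 and 90 FPKM in estrus and 80.4, 66.6 and 80.7 FPKM in diestrus.

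**Figure D4:**
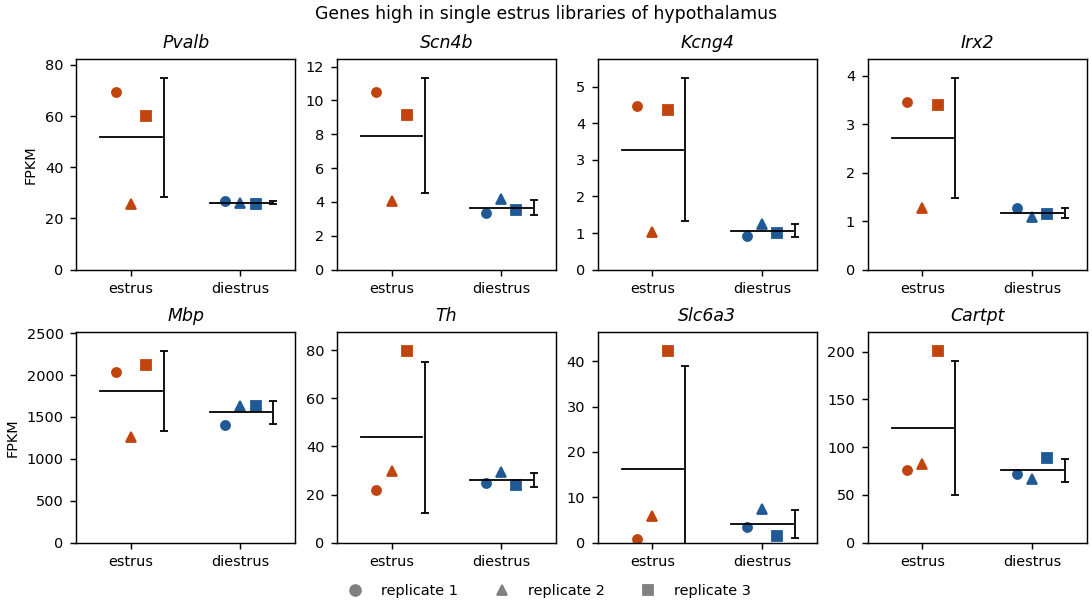
Level of 8 genes that are high in some estrus libraries but not in all, in FPKM by library. Shapes mark the replicate number, horizontal lines the mean and vertical bars the SD of 3 libraries. Pvalb, Scn4b, Kcng4, Irx2 and Mbp are high in estrus replicates 1 and 3 and not in 2, whereas Th, Slc6a3 and Cartpt are high in estrus replicate 3.

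Lists of stress, immunity and steroid handling were read against the 53.8% of all tested genes with a log2 fold change above 0. Of 17 glucocorticoid and metal stress genes tested, 14 had values above 0, with a median of 0.16. Ddit4, a glucocorticoid-induced inhibitor of mTOR, was at 17, 18.9 and 18.3 FPKM in estrus and 14.7, 13.2 and 15 FPKM in diestrus (log2 fold change 0.32, adjusted p = 0.226). Nfkbia, the inhibitor of NF-kappaB, was at 18, 17.5 and 18.3 against 13.9, 11.3 and 14.9 FPKM. The metallothioneins Mt1, Mt2 and Mt3 overlapped. Of 16 interferon-stimulated genes, 13 had values above 0, and Irf7, an interferon regulatory factor, was at 2.58, 2.75 and 2.9 FPKM in estrus and 1.62, 1.89 and 1.97 FPKM in diestrus. Without estrus replicate 2 the median of this list went from 0.18 to 0.06. Of 10 steroid metabolism genes tested, 4 lay above without overlap, beside 9.96% of all tested genes, and the 3 that were higher at an unadjusted p under 0.05 became 0 after length adjustment. Among the 4 was Hsd11b1, which regenerates active glucocorticoid, at 11.8, 10.6 and 12.6 against 7.79, 10.5 and 10 FPKM. Hsd17b10 averaged 23.7 ± 1.12 and 21.1 ± 0.86 FPKM. Cd59a, a membrane inhibitor of complement, was at 31.2, 31 and 32.8 FPKM in estrus and 21.1, 20 and 30.5 FPKM in diestrus. Of 28 complement and coagulation genes, 18 had values above 0 with a median of 0.08. On the TPM scale the medians of the stress, interferon, steroid and complement lists were 0.11, 0.13, 0.07 and 0.01, and the stress list then split into 9 genes above and 8 below 0 and the complement list into 14 and 14. Cldn5, the endothelial claudin, averaged 12.3 ± 0.94 and 9.59 ± 1.11 FPKM, and 8 of 10 endothelial markers had values above 0. So did 13 of 13 markers of mural cells and leptomeninges, with a median of 0.17. The same held for 12 of 13 markers of ependyma and tanycytes, with a median of 0.27 that was 0.14 without estrus replicate 2. No marker of either list lay above without overlap, beside 9.96% of all tested genes. The 14 listed mural and leptomeningeal markers summed to 197, 135 and 122 FPKM in estrus and 84.3, 160 and 161 FPKM in diestrus, with overlap. The part of these cell types in the lists above was not tested. None of these genes passed.

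**Figure D5:**
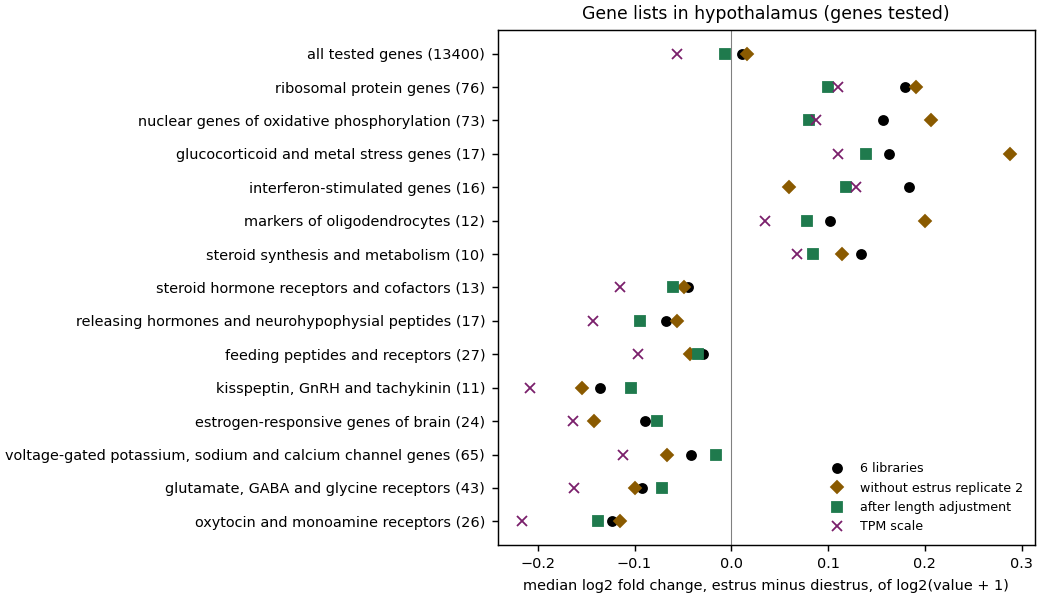
Median log2 fold change, estrus minus diestrus, of 14 gene lists and of all tested genes, with the number of genes tested in parentheses; circles are all 6 libraries, diamonds the fit without estrus replicate 2, squares the length-adjusted values and crosses the TPM scale. Ribosomal protein genes lie at 0.18, 0.19, 0.1 and 0.11 and transmitter receptor genes below 0 on every scale.

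The phase effect of hypothalamus was set against that of cerebrum, the other brain tissue of the survey, in a fit of 12 libraries. No gene of 13280 differed at an adjusted p of at most 0.05 (limma, 0%, lowest adjusted p 0.999), and 522 genes (3.93%) did at an unadjusted p under 0.05. Among the hypothalamic genes named above, the difference in log2 fold change was -1.34 for Oxt and -0.6 for Irs4, with unadjusted p of 0.0359 and 0.0111. Crhr1 and Hcrt had unadjusted p of 0.0338 and 0.0138. In hypothalamus alone the log2 fold change was -0.13 for Oxt and -0.17 for Irs4. In cerebrum, Oxt averaged 2.27 FPKM in estrus and 0.37 FPKM in diestrus, Irs4 0.51 and 0.1 FPKM, and Hcrt 0.56 and 0.26 FPKM. The 19 hypothalamic neuron genes summed to 14.6, 60.1 and 54.3 FPKM in estrus cerebrum libraries and 10.5 to 15.4 FPKM in diestrus ones. The part of hypothalamic RNA in cerebrum in these differences was not tested. In a fit of all 90 libraries, which borrows the spread from the other tissues, 24 genes differed at an adjusted p of at most 0.05. Oxt (adjusted p = 0.0226) and Irs4 (adjusted p = 0.00134) were among them. In hypothalamus both overlapped between the phases. Their cerebrum levels were 0.03 to 3.24 FPKM for Oxt and 0.09 to 0.78 FPKM for Irs4. For hypothalamus alone the same fit called 4 genes, which were Prl, Gh, Cga and En1. Another 11 genes were at an adjusted p of at most 0.05 with smaller fold changes, among them Prokr2, Galr1, Pcdha7 and Hs6st3 on the lower side and Rax and Six6, transcription factors of the hypothalamic lineage, on the higher side. Rax was at 1.81, 2.58 and 2.97 FPKM in estrus and 1.66, 0.74 and 2.05 FPKM in diestrus, with overlap. Six6 was at 2.86, 5.07 and 3.13 FPKM in estrus and 2.23, 2.19 and 3.3 FPKM in diestrus. It overlapped as well and was highest in estrus replicate 2.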

How the data were processed

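RNA of 3 estrus and 3 diestrus hypothalamus samples was sequenced on the BGISEQ-500. The authors filtered reads with SOAPnuke, aligned them with Bowtie2 2.2.5 (GRCm38.p5) and estimated abundance with RSEM 1.2.8; the deposited values are FPKM without counts. The file does not name its unit, which was taken from the paper and the values. True counts were not recovered: 67.2% to 74.1% of low values came out whole to within 0.2 reads, so no count test was run. Symbols came from the RefSeq table of GRCm38.p6 (20265 of 20414 identifiers).

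Genes that averaged 1 FPKM or more over the 6 libraries were tested as log2(FPKM + 1) with limma 3.58.1 (R 4.3.3), with an intensity trend, no covariate and Benjamini-Hochberg adjustment over all tested genes, after a test on simulated data. The call needed an adjusted p of at most 0.05 and a log2 fold change of at least 1. With 3 against 3, an exact permutation test cannot go below p = 0.1. Length adjustment subtracted a loess fit (span 0.5, degree 1) of each library's deviation on log2 transcript length, known for 97.4% of tested genes. Plots and summaries used Python 3.11.15, pandas 2.3.3 and matplotlib 3.10.9.

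The comparison and the gene lists were chosen with earlier results of these data known, so counts over lists are descriptions. Named genes were all called genes, the 12 highest and 12 lowest fold changes without overlap and with an unadjusted p under 0.05 with and without estrus replicate 2, the members of the 5 central lists, the 3 most abundant and the non-overlapping members of other lists, the 12 lowest p-values and the 8 genes that most set estrus replicate 2 apart. Genes named for a fold change past 1, Spp1, Gbx2 and genes of the 90-library fit were added after their values were seen. Some items are not reported here. Alternatives covered the pseudocount (0.1 and 5), the filter, the scale, the model, a replicate block and each library left out.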

Additional observations from a re-analysis of the deposited data

How the results depend on the processing

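The 0 called genes became 4 in a fit of all 90 libraries, 3 with length adjustment without estrus replicate 2, and 0 to 4 when single libraries were left out, the 4 without estrus replicate 2. Genes higher at an unadjusted p under 0.05 numbered 1023, and 314 on the TPM scale, 578 in the fit with cerebrum, 60 in the fit of all 90 libraries, 512 with length adjustment, and 744 to 1412 with single libraries left out. Genes lower numbered 748, and 2041, 278 and 61 in the first 3 of these, and 412 to 761 with single libraries left out, the 412 without diestrus replicate 1. The median over all genes moved to -0.06 on the TPM scale. Genes that differed from cerebrum numbered 0, and 24 in the fit of all 90 libraries. Of 342 named and tested genes, 188 had an unadjusted p under 0.05. Over all alternatives none turned its direction among these, and 723 values lost that p, 171 of them in the fit of all 90 libraries. Of the other named genes, 24 values moved by more than 1 SD. The replicate numbers did not pair the libraries: same-number correlations of the deviations were -0.16, -0.02 and -0.11. With the replicate block 0 genes were called, 1013 were higher and 685 lower. Depth was 15.3M to 15.6M reads, and values near 0 say little about a gene.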

Other observations

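Spp1, the osteopontin gene, was at 21, 10.9 and 16 FPKM in estrus and 4.11, 11.7 and 9.24 FPKM in diestrus, a log2 fold change of 0.91 with an adjusted p of 0.331. Gbx2, a homeobox gene of thalamus, was at 0.3, 2.3 and 0.18 FPKM in estrus and 3.4, 2.67 and 0.21 FPKM in diestrus, and 10 thalamic markers summed to 43.1 to 79 FPKM in estrus and 44.7 to 91.3 FPKM in diestrus. Alb, the serum albumin gene of liver, was at 9.25, 0.24 and 4.16 FPKM in estrus and 0.09, 14.5 and 7.33 FPKM in diestrus.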
